A study of Mus musculus with 2 samples.

Results

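Laminin chains were followed through the newborn mouse lung: Lama2, Lama3, Lama4 and Lama5 (alpha chains), Lamb1, Lamb2 and Lamb3 (beta chains) and Lamc1 (a gamma chain). They were taken by gene symbol, and all 8 were found among the 17758 genes of the single-cell table and among the 16906 genes of the bulk table. Of the rest of the family, Lama1 and Lamc3 are described beside them, which makes 10 chains, and other chains were not analysed here.

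The study profiled cells of the peripheral lung at postnatal day 3, an age at which alveoli are forming. One group was wild type, and its sorted cells were run as a single-cell library with the 10x Chromium 3′ v3 chemistry. In the other group, PDGFRA+ cells were sorted from mice of the genotype Pdgfra-H2BGFP, which carry a histone H2B-GFP fusion reporting Pdgfra, and measured by bulk RNA-seq. Each group had 1 sample, both were described as control lungs, and the labels do not say how many animals were pooled or which cells the sort of wild-type lung kept. With 1 sample a group there is no replicate error, so no test was made, and all intervals below cover counting error only.

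Laminins are large secreted proteins of the basement membrane, each made of 1 alpha, 1 beta and 1 gamma chain that wind into a coiled coil inside the cell. Beta and gamma chains alone are largely held in the cell, and joining of an alpha chain allows the trimer to leave. The alpha chain carries the globular end that binds integrins and dystroglycan, so which alpha chain a cell makes sets much of what its laminin can bind. A trimer is named by the numbers of its chains, so that laminin-411 is built of Lama4, Lamb1 and Lamc1. Lama3 and Lamb3 are known as chains of the laminin that anchors epithelium.

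The single-cell values are whole numbers that appear corrected for depth: cell totals had a median of 5537 and spanned only 1.79-fold. Clustering of 10199 kept cells gave 36 clusters, which marker genes placed in 25 classes; 180 cells stayed unnamed. Sums of a class's own markers are given here for alveolar type 1-like and natural killer cell-like cells only. The 7 alveolar type 1 markers summed to 22572 CPM in alveolar type 1-like cells and at most 2650 CPM in any other class. The 6 natural killer markers summed to 5551 CPM in natural killer cell-like cells, of which Gzma alone made 4581 CPM. Classes are called "-like" because the names rest on markers, and 2 clusters with an unclear subtype are called unresolved. A class level is given as CPM, the summed values of a gene scaled to a class total of 1000000, and beside it the share of cells with a value above 0 and its exact Clopper-Pearson 95% interval. The median number of detected genes per cell ran from 1009 in neutrophil-like to 3205.5 in ciliated-like cells, so shares compare classes of unequal depth. The bulk library held 171910584 reads.

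The chains differed in where they were highest. Alveolar type 1-like cells led in Lama3 and Lamb3, mesothelial-like cells in Lama5, Lamb2 and Lamc1, pericyte-like cells in Lamb1, adventitial fibroblast-like cells in Lama2 and lymphatic endothelial-like cells in Lama4. Lama5, Lamb2 and Lamc1 were spread over epithelial, mesenchymal and endothelial classes. Over the 11 immune classes the highest share of cells with a value was 0.897% for Lama2, 3.13% for Lama3, 2.02% for Lama4, 8.55% for Lama5, 5.92% for Lamb1, 3.81% for Lamb2 and 6.25% for Lamc1, against 24.6% for Lamb3. Apart from the Lamb3 share, which is described further below, these shares in cells not known for basement membrane serve as the background for the shares below. Sftpc, a surfactant gene that immune cells are not known to express, stood at 213056 CPM in alveolar type 2-like cells and at 289.5 to 1492 CPM in the immune classes. Its levels are given beside results that free RNA could touch.

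**Figure D1:**
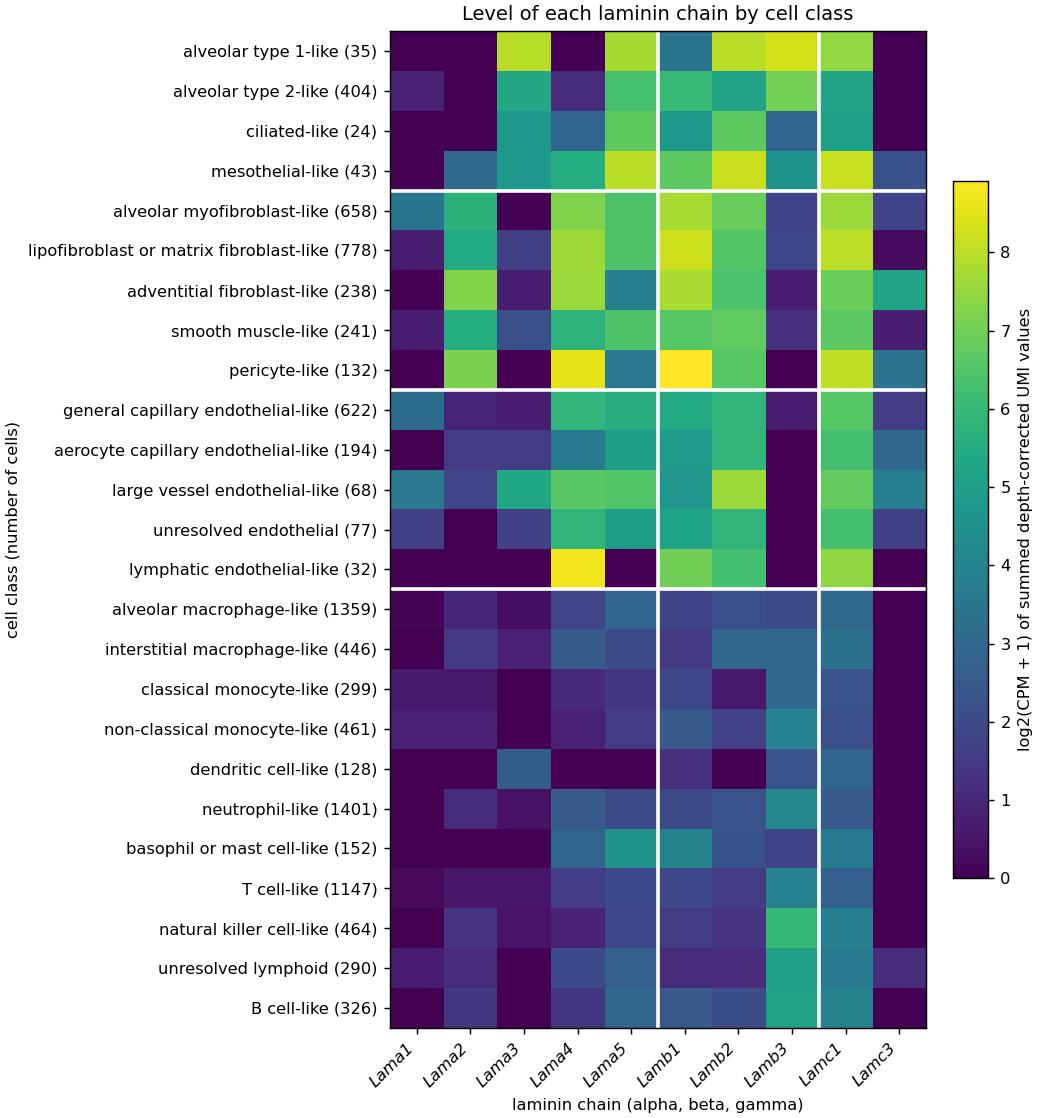
Level of each of the 10 laminin chains described (columns: alpha, beta, gamma) in the 25 cell classes (rows, number of cells in brackets; blocks from the top are epithelial and mesothelial, mesenchymal, endothelial and immune), as log2(CPM + 1) of the summed depth-corrected values. Lama3 and Lamb3 are brightest in alveolar type 1-like cells, Lama2 and Lama4 are bright across the mesenchymal rows, and the highest value in the immune rows is Lamb3 in natural killer cell-like cells, at 61.5 CPM.

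Lama2, the alpha chain of muscle and nerve basement membranes, was a mesenchymal gene in this library. Adventitial fibroblast-like cells had 149.6 CPM (60.9% of 238 cells, interval 54.4 to 67.2) and pericyte-like cells 142.8 CPM (50.0% of 132 cells, 41.2 to 58.8), and these intervals overlap. Alveolar myofibroblast-like cells followed at 52.0 CPM (26.9%), smooth muscle-like cells at 45.4 CPM (22.0%) and lipofibroblast or matrix fibroblast-like cells at 42.6 CPM (19.2%). Outside these 5 classes the highest level was 7.42 CPM, in mesothelial-like cells. Both leading classes stood above the other mesenchymal classes, and their intervals do not overlap with those. Within lipofibroblast or matrix fibroblast-like cells, a cycling cluster of 60 cells led by Spc25 had 83.4 CPM and the cluster of 718 cells 38.8 CPM.

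Lama4, an alpha chain of vessel walls and mesenchyme, was highest in lymphatic endothelial-like cells at 418.3 CPM, with a value in 84.4% of only 32 cells (67.2 to 94.7). Pericyte-like cells came next at 372.7 CPM (78.0%, 70.0 to 84.8), an interval that overlaps. Lipofibroblast or matrix fibroblast-like cells had 199.9 CPM, adventitial fibroblast-like cells 190.1 CPM and alveolar myofibroblast-like cells 149.6 CPM, with shares of 61.6%, 66.0% and 57.4%. Blood endothelium was lower and uneven. Large vessel endothelial-like cells, led by Gja5 and Vwf, had 97.9 CPM, general capillary endothelial-like cells 57.1 CPM and aerocyte-like cells, the capillary cells that face the air, 12.03 CPM. The share in aerocyte-like cells was 5.15%, against 23.8% in general capillary endothelial-like cells, and their intervals do not overlap. No alveolar type 1-like cell had a Lama4 value, and 0 of 35 cells allows a share of cells with a value of up to 8.57% (counted as 3 cells), with an exact upper limit of 10.0%.

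Lama5, the broadly used alpha chain of epithelial and adult basement membranes, divided the mesenchymal classes in the opposite direction to Lama2. Mesothelial-like cells, which line the lung surface, had 255.8 CPM (83.7%, 69.3 to 93.2) and alveolar type 1-like cells 210.3 CPM (77.1%, 59.9 to 89.6), with overlapping intervals. A middle group lay close together: ciliated-like cells had 103.0 CPM, large vessel endothelial-like cells 89.98 CPM, smooth muscle-like cells 88.0 CPM, lipofibroblast or matrix fibroblast-like cells 86.5 CPM, alveolar myofibroblast-like cells 85.2 CPM and alveolar type 2-like cells 78.9 CPM. Neighbours in that middle group do not differ beyond their intervals. The mesenchymal classes richest in Lama2 were the poorest in Lama5, with 13.04 CPM in adventitial fibroblast-like cells (7.14%, 4.22 to 11.2) and 10.9 CPM in pericyte-like cells (5.30%, 2.16 to 10.6). Both shares lie below the highest immune share of Lama5, 8.55%. Lymphatic endothelial-like cells, highest in Lama4, had no Lama5 value in 32 cells, which allows a share of up to 9.38% by the same count of 3 cells, with an exact upper limit of 10.9%.

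Lama3, an alpha chain known from epithelium, was concentrated in alveolar type 1-like cells, the thin cells of gas exchange, at 249.4 CPM (62.9%, 44.9 to 78.5). Alveolar type 2-like cells, the surfactant makers, had 40.7 CPM (22.8%, 18.8 to 27.2), and the intervals do not overlap. Large vessel endothelial-like cells had 39.7 CPM in 19.1% of 68 cells (10.6 to 30.5), while the other 4 endothelial classes had 2.22 CPM or less. Mesothelial-like cells had 26.0 CPM and ciliated-like cells 25.7 CPM. In large vessel endothelial-like cells 5 of the 7 alveolar type 1 markers were at 0 (Rtkn2, Aqp5, Akap5, Pdpn and Cldn18), and the 7 alveolar type 2 markers summed to 1069 CPM, the highest of the 5 endothelial classes, where the lowest was 543.1 CPM. Their part in the Lama3 level was not tested. Lamb3, the usual beta partner of Lama3, had no value in these 68 cells, which allows a share of up to 4.41% by the count of 3 cells, with an exact upper limit of 5.28%.

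Lama1, an early embryonic alpha chain that is not among the 8, was low: 10.6 CPM in large vessel endothelial-like, 10.2 CPM in alveolar myofibroblast-like and 7.86 CPM in general capillary endothelial-like cells, and 2.22 CPM or less in every other class.

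The make-up of the alpha chains sums up these differences within a class, since each value stands for the 3′ end of a transcript and all chains of a class share its depth. Lama2, Lama4 and Lama5 made 17.5%, 50.4% and 28.7% of all alpha-chain values in alveolar myofibroblast-like cells and 12.8%, 60.2% and 26.1% in lipofibroblast or matrix fibroblast-like cells. In adventitial fibroblast-like cells they made 42.3%, 53.8% and 3.69%, and in pericyte-like cells 27.1%, 70.8% and 2.07%. Lama5 thus took up 26.1% or more of the alpha values in the first pair of classes and 3.69% or less in the second. Smooth muscle-like cells had 46.2% in Lama5. Alveolar type 1-like cells had only Lama3 (54.3%) and Lama5 (45.7%), and lymphatic endothelial-like cells only Lama4.

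**Figure D2:**
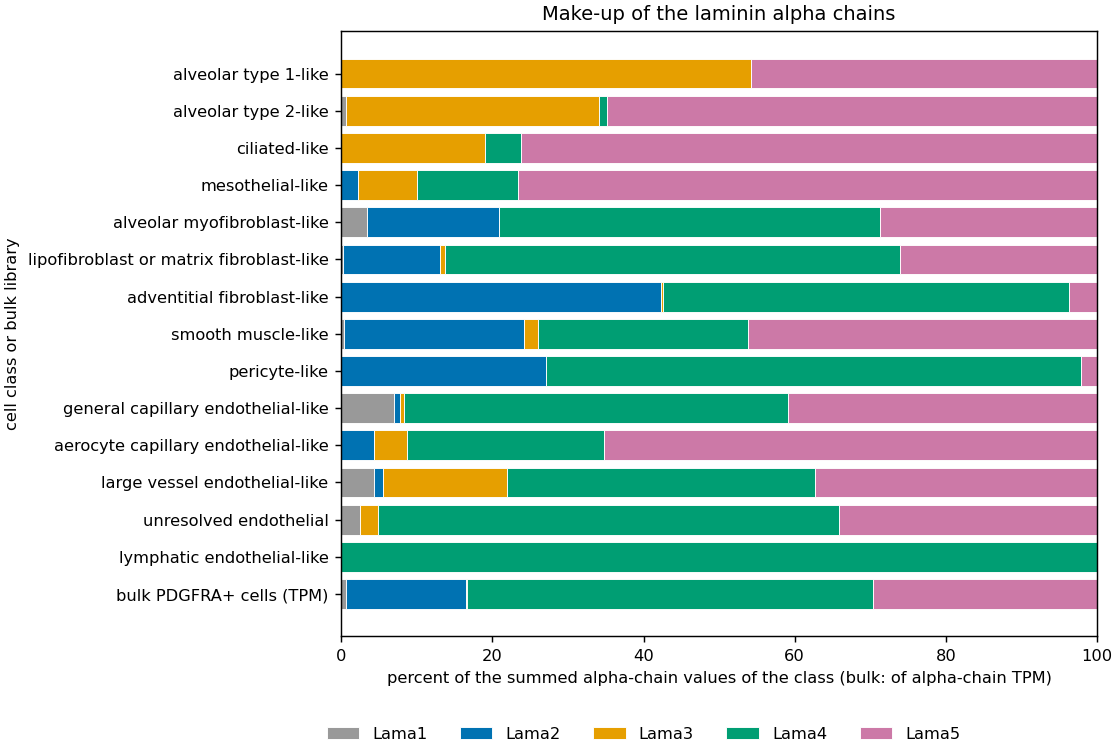
Percent of the summed alpha-chain values (horizontal axis) that each of the 5 alpha chains makes up in the 14 structural cell classes, and of the alpha-chain TPM in the bulk PDGFRA+ library (bottom bar). Lama2 and Lama4 fill the pericyte-like and adventitial fibroblast-like bars, whereas alveolar myofibroblast-like cells hold 28.7% Lama5. The bulk library holds 29.7% Lama5 by TPM and 41.1% by reads alone, so its likeness to a class depends on length scaling.

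Lamb1, the widespread early beta chain, was highest in pericyte-like cells at 481.6 CPM (86.4%, 79.3 to 91.7). Lipofibroblast or matrix fibroblast-like cells had 298.5 CPM (74.3%, 71.1 to 77.3), adventitial fibroblast-like cells 221.6 CPM and alveolar myofibroblast-like cells 212.8 CPM. Epithelium was split: alveolar type 2-like cells had 63.5 CPM (31.9%, 27.4 to 36.7) and alveolar type 1-like cells 9.78 CPM, from 1 of 35 cells. Large vessel endothelial-like cells had 23.8 CPM and lymphatic endothelial-like cells 124.9 CPM.

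Lamb2, a beta chain known from kidney, nerve-muscle junctions and mature basement membranes, was led by mesothelial-like cells at 296.6 CPM (83.7%), alveolar type 1-like cells at 254.3 CPM (74.3%) and large vessel endothelial-like cells at 193.2 CPM (51.5%), each interval overlapping the next. The 5 mesenchymal classes were alike in Lamb2, from 83.0 CPM in adventitial fibroblast-like to 113.4 CPM in alveolar myofibroblast-like cells, whereas their Lamb1 ran from 96.4 to 481.6 CPM. Of the beta-chain values, Lamb2 was 16.7% in pericyte-like, 23.1% in lipofibroblast or matrix fibroblast-like, 34.5% in alveolar myofibroblast-like, 51.7% in smooth muscle-like and 89.0% in large vessel endothelial-like cells.

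Lamb3, a beta chain known from epithelium, was highest in alveolar type 1-like cells at 322.7 CPM (77.1%, 59.9 to 89.6) and in alveolar type 2-like cells at 132.2 CPM (60.9%, 55.9 to 65.7). The third class was not epithelial. Natural killer cell-like cells had 61.5 CPM, with a value in 24.6% of 464 cells (20.7 to 28.7), above B cell-like cells at 34.2 CPM (14.4%, 10.8 to 18.7) and the unresolved lymphoid class, led by Pdcd1 and Il17a, at 32.6 CPM (14.1%, 10.3 to 18.7). T cell-like cells had 14.5 CPM (7.24%) and neutrophil-like cells 16.3 CPM (4.50%). In fibroblast-like, muscle-like and endothelial classes Lamb3 stayed at or below 2.70 CPM, and pericyte-like, aerocyte-like, large vessel endothelial-like and lymphatic endothelial-like cells had none.

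In natural killer cell-like cells Lama3, the usual alpha partner of Lamb3, had 0.400 CPM. The 7 alveolar type 2 markers summed to 847.6 CPM there, within their range of 600.4 to 1667 CPM over the immune classes. The 7 alveolar type 1 markers summed to 138.3 CPM, with Rtkn2 at 0, in a range of 27.96 to 165.3 CPM. Their part in the Lamb3 level was not tested. Sftpc alone had 748.5 CPM. It was found in 94.7% of the 114 cells with Lamb3 (88.9 to 98.0) and in 95.1% of the 350 cells without it (92.3 to 97.1), and the median numbers of detected genes were 1650.5 and 1517.5. Lamb3 lies on chromosome 1 (chr1:193207699-193343878, forward strand, GENCODE M21), and Hsd11b1 and G0s2 lie inside that span on the other strand, sharing 0 exonic bases with it. The labels do not state whether counting used strand. Hsd11b1 had 106.3 CPM in natural killer cell-like cells and 247.6 CPM in pericyte-like cells. G0s2 had 18.4 CPM in natural killer cell-like and 2810 CPM in neutrophil-like cells. The part of these genes in the Lamb3 level was not tested.

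**Figure D3:**
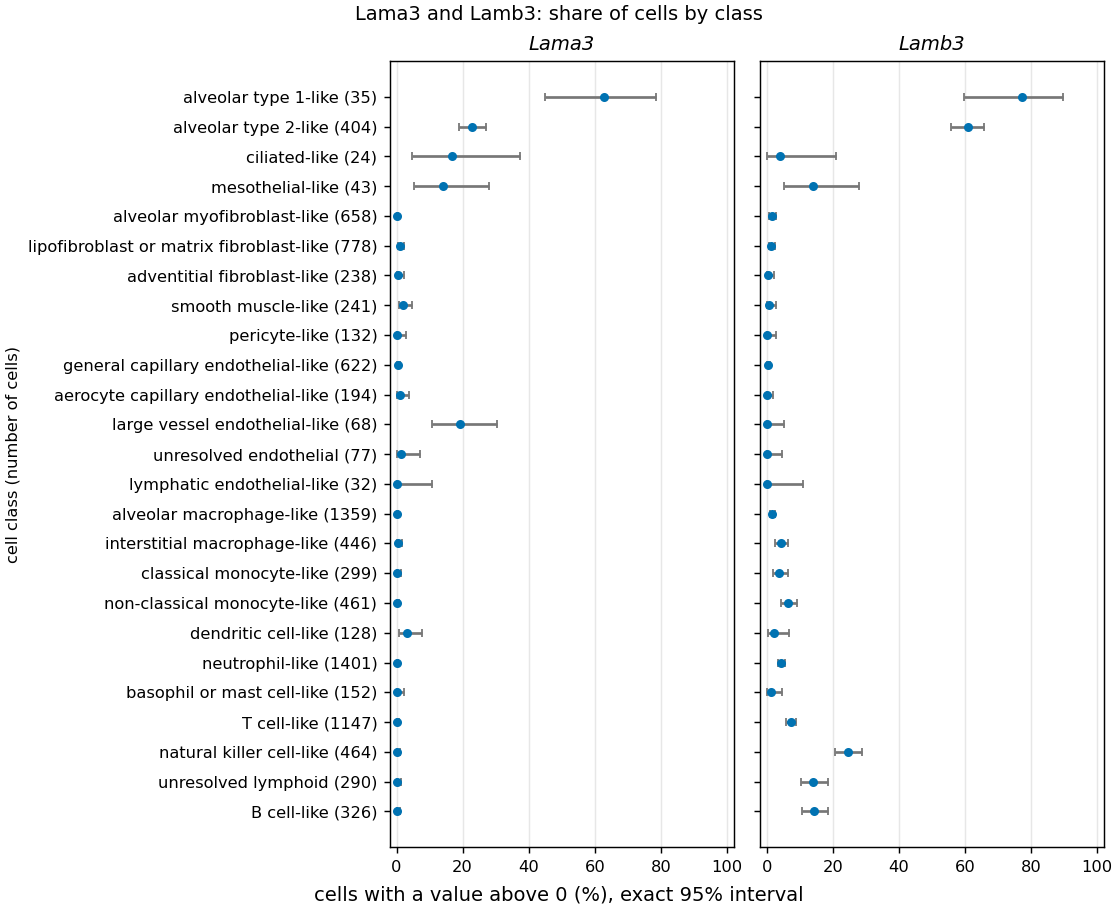
Share of cells with a value above 0 (horizontal axis, percent; bars are exact 95% intervals) for Lama3 (left) and Lamb3 (right) in the 25 classes (number of cells in brackets). Both chains are high in alveolar type 1-like cells, Lama3 alone appears in large vessel endothelial-like cells at 19.1%, and Lamb3 alone in natural killer cell-like cells at 24.6%.

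Lamc1, the gamma chain of most laminins, was high in mesothelial-like, mesenchymal, endothelial and alveolar type 1-like cells. Mesothelial-like cells had 285.5 CPM (86.0%), pericyte-like cells 266.6 CPM (69.7%), lipofibroblast or matrix fibroblast-like cells 258.2 CPM (71.7%), alveolar myofibroblast-like cells 193.8 CPM (66.7%), alveolar type 1-like cells 176.0 CPM (62.9%) and lymphatic endothelial-like cells 173.8 CPM (65.6%). Each of these intervals overlaps the next. The lowest endothelial level was 77.2 CPM, in aerocyte-like cells. Alveolar type 2-like cells had less, 36.2 CPM (19.6%), and ciliated-like cells 32.2 CPM (20.8% of 24 cells). Lamc3 was highest in adventitial fibroblast-like cells at 35.7 CPM (16.0%, 11.6 to 21.3).

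Set against all other kept cells, each class was described by how many members differed at least 2-fold, with 1 CPM added to both sides, beside the same percent over the 15397 genes with at least 20 summed values. These are counts by size and carry no test. In the 11 immune classes 80 of 88 pairs of member and class were lower (all genes: 19.8% to 63% by class). Most kept cells were of these classes. A structural class was therefore set largely against immune cells, and the counts do not compare structural classes with each other. In alveolar myofibroblast-like cells 6 of 8 members were higher and 2 lower (all genes: 16.2% and 17.9%), and in lipofibroblast or matrix fibroblast-like cells 6 were higher and 1 lower (14.3% and 19.7%). Both classes were higher in Lama2, Lama4, Lama5, Lamb1, Lamb2 and Lamc1. In pericyte-like cells 5 were higher and 3 lower (10.8% and 23.8%), and in adventitial fibroblast-like cells 5 and 3 (14.9% and 18.4%), with Lama5 among the lower in both. Smooth muscle-like cells had 3 higher, Lama2, Lama5 and Lamb2, and 1 lower (9.85% and 19%). That count of 3 became 5 with stricter cell filters and with finer clustering. In the finer clustering a second cluster of 119 cells took the smooth muscle name. It was led by Aspn, which is on the marker list used for alveolar myofibroblasts and not on that for smooth muscle.

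Among epithelial and lining cells, alveolar type 1-like cells had 5 higher and 3 lower (13.5% and 32.7%), and the lower ones were Lama2, Lama4 and Lamb1. Alveolar type 2-like cells had 3 higher, Lama3, Lama5 and Lamb3, and 2 lower (12.6% and 26.1%). Mesothelial-like cells had 4 higher and 0 lower (17.5% and 26.9%). Capillary classes showed no member 2-fold higher: general capillary endothelial-like cells had 0 higher and 3 lower (10% and 21.7%), and aerocyte-like cells 0 and 4 (9.42% and 27.3%). Large vessel endothelial-like cells had 4 higher, Lama3, Lama4, Lama5 and Lamb2, and 3 lower (13.5% and 25.9%). Lymphatic endothelial-like cells had 4 higher and 4 lower (14% and 27.3%). In natural killer cell-like cells Lamb3 alone was higher and the other 7 were lower (3.81% and 33.6%).

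A cell can only complete a trimer if it has all 3 kinds of chain, so the share of cells with a value for at least 1 alpha, 1 beta and 1 gamma chain was counted over the 10 chains, with Lamc1 and Lamc3 as the gamma chains. A cell whose only gamma chain is one not counted here is missed by this share. It was 72.1% in mesothelial-like cells (56.3 to 84.7), 60.0% in alveolar type 1-like cells (42.1 to 76.1), 56.1% in pericyte-like cells (47.2 to 64.7), 51.4% in lipofibroblast or matrix fibroblast-like cells (47.8 to 54.98), 49.2% in alveolar myofibroblast-like cells (45.4 to 53.1) and 45.8% in adventitial fibroblast-like cells (39.3 to 52.4). Each of these intervals overlaps the next. Smooth muscle-like cells had 22.4%, alveolar type 2-like cells 10.6%, general capillary endothelial-like cells 8.52% and aerocyte-like cells 2.58%. In the immune classes it was at most 0.658%. A chain can be missed in a cell and stray RNA can add one, so these shares depend on depth. Aerocyte-like cells with a beta or gamma chain but no alpha chain made 37.1% of their class.

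Sets of 3 named chains differed by class. The chains of laminin-411 (Lama4, Lamb1 and Lamc1) were found together in 47.0% of pericyte-like cells, 37.0% of lipofibroblast or matrix fibroblast-like cells and 30.9% of alveolar myofibroblast-like cells. Those of laminin-211 (Lama2, Lamb1 and Lamc1) were found in 33.3% of pericyte-like and 23.1% of adventitial fibroblast-like cells. The laminin-521 set (Lama5, Lamb2 and Lamc1) was found in 65.1% of mesothelial-like and 45.7% of alveolar type 1-like cells. Pairs of alpha chains were also counted: Lama4 and Lama5 were found together in 24.5% of alveolar myofibroblast-like cells and 5.30% of pericyte-like cells. Lama2 and Lama4 were found together in 17.9% and 41.7%. Lama5 itself had a value in 40.1% of alveolar myofibroblast-like and 5.30% of pericyte-like cells. Pairing beyond such single-chain shares was not tested.

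**Figure D4:**
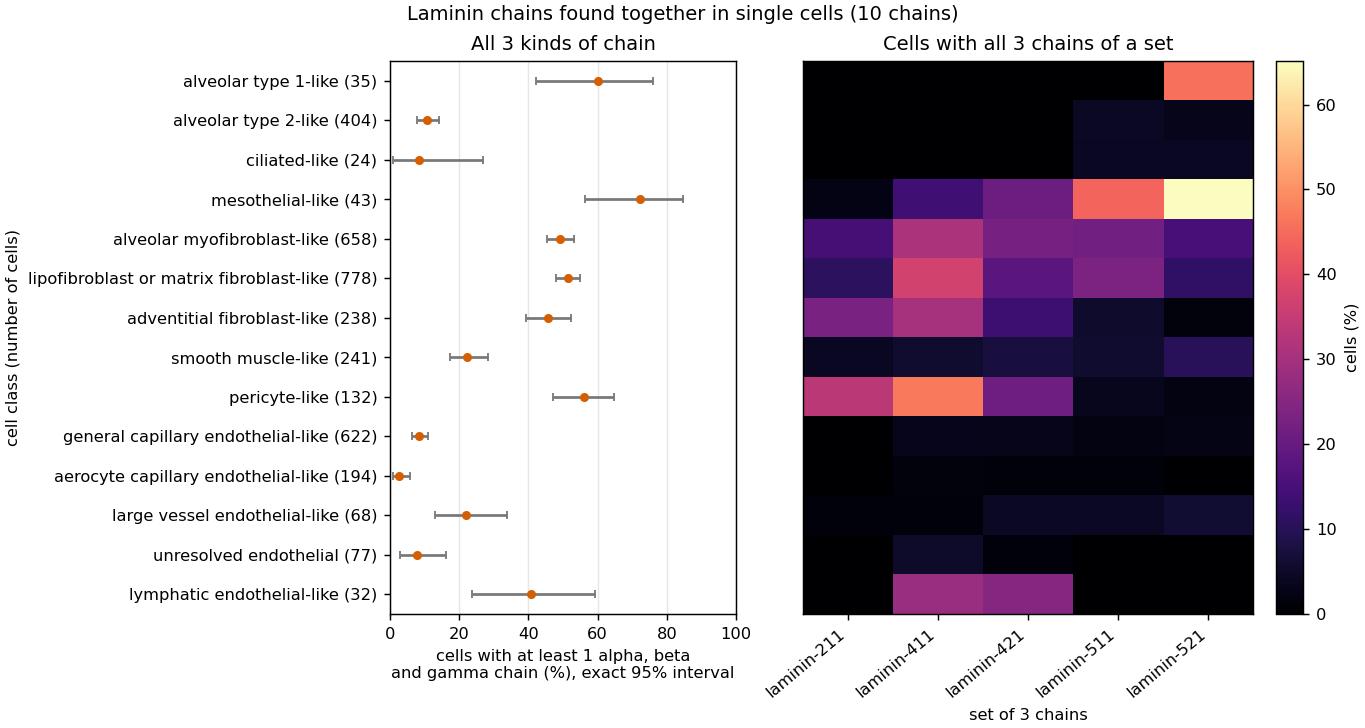
Left, share of cells (percent, exact 95% intervals) with a value for at least 1 alpha, 1 beta and 1 gamma chain in the 14 structural classes, over the 10 chains; right, colour scale of the share of cells with all 3 chains of each named laminin, in the same row order. Mesothelial-like cells reach 65.1% for laminin-521 and alveolar type 1-like cells 45.7%, and pericyte-like cells reach 47.0% for laminin-411.

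Across the 22 classes of at least 40 cells, levels on the log2(CPM + 1) scale of Lamb2 and Lamc1 had a Pearson r of 0.94, Lamb1 and Lamc1 of 0.92, and Lama4 and Lamc1 of 0.90, while Lama4 and Lamb3 had -0.67. These classes share 1 library and differ in depth, so the values are descriptions. Among 11297 other genes the pattern of Lama2 was most like that of Mdk, Col6a3 and Sdc2 (r of 0.94 for each), and that of Lama4 like Lix1l, Hoxa2 and Col5a2 (0.95 for each). Lama3 was most like Krt18, Eps8l2 and Pdzk1ip1 (0.87, 0.86 and 0.84), and Lama5 like Arhgef5, Prpf40b and Tmem98 (0.91, 0.90 and 0.90). For Lamb1 they were Pygo1, Cdc42ep5 and Tead1 (0.96, 0.96 and 0.95), for Lamb2 Lzts2, Rhbdf1 and Ttc23 (0.97, 0.96 and 0.96), and for Lamc1 Smo, Zfp30 and Vps37d (0.96, 0.95 and 0.95). Lamb3 had the weakest matches, Mgst2, Stk26 and Hexim1 (0.83, 0.77 and 0.77).

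The bulk library of sorted PDGFRA+ cells allowed levels to be compared between chains per transcript length, as the deposited TPM. Its sort label was checked first: Pdgfra had 54.0 TPM, the leukocyte gene Ptprc 1.99, the endothelial gene Pecam1 3.87 and the epithelial gene Epcam 0.57. However, Sftpc had 211.0, the smooth muscle gene Myh11 177.6 and the pericyte marker Cspg4 10.2 TPM. The source of these levels was not tested. In the single-cell library Pdgfra was highest in alveolar myofibroblast-like (327.5 CPM), adventitial fibroblast-like (137.2 CPM) and lipofibroblast or matrix fibroblast-like cells (47.7 CPM). Lamb1 had 291.1 TPM, Lamc1 261.1, Lamb2 227.7, Lama4 175.1, Lama5 96.7 and Lama2 51.8 TPM. Lamb3 had 0.91 TPM and Lama3 0.42 TPM. Among all listed genes Lamb1 stood at the 97.1 percentile, Lama2 at 83.1, Lamb3 at 25.8 and Lama3 at 20.3. As CPM with exact Poisson 95% intervals, Lamb1 had 853.5 (849.1 to 857.9), Lama2 257.2 (254.8 to 259.6), Lamb3 1.84 (1.65 to 2.06) and Lama3 1.63 (1.45 to 1.84). Of the chains outside the 8, Lamc3 had 31.4 and Lama1 2.03 TPM. Summed TPM was 326.1 for alpha, 519.7 for beta and 292.5 for gamma chains, over the 10 chains. Per length, Lama4 made 53.7%, Lama5 29.7% and Lama2 15.9% of the alpha chains, and Lamb1 56.0% and Lamb2 43.8% of the beta chains. By reads alone Lama5 led, with 41.1% against 39.3% for Lama4. A bulk level cannot tell fewer cells of a type from less RNA per cell.

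**Figure D5:**
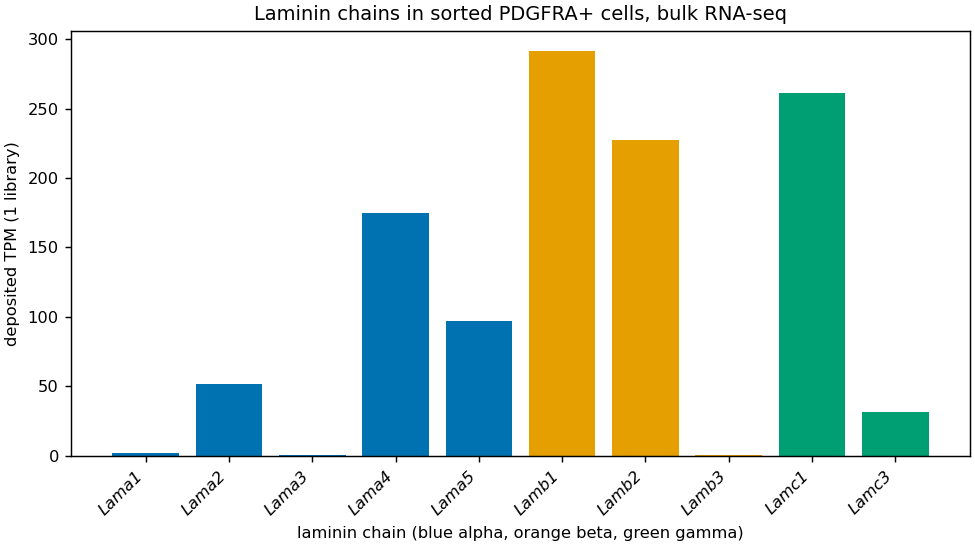
Deposited TPM (vertical axis) of the 10 laminin chains described, in the 1 bulk library of sorted PDGFRA+ cells; colours mark alpha, beta and gamma chains. Lamb1, Lamc1 and Lamb2 exceed 200 TPM, Lama4 leads the alpha chains at 175.1 TPM, and Lama3 and Lamb3 are below 1 TPM.

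The bulk library was set beside those 3 fibroblast-like classes of the single-cell library, pooled, 2 assays that differ in how reads relate to transcript length. As CPM, 6 of 8 members were at least 2-fold higher in bulk (20.4% of 13901 genes), namely Lama2, Lama4, Lama5, Lamb1, Lamb2 and Lamc1. With bulk TPM only Lamb2 was (10.6%), at a log2 ratio of 1.20, where the median of all genes was -0.19. Against the whole single-cell library, which holds mostly other cells, the same 6 members were higher (27.6%) and Lamb3 lower (23.3%). With TPM the 6 remained higher (18.6%), and Lamb3 and Lama3 were lower (29.8%). Lamc3, which in the single-cell library was highest in adventitial fibroblast-like cells, had a log2 ratio of 2.14 over the fibroblast-like classes with TPM.

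What binds laminin was described from 3 further lists, of 11 receptor genes, 14 other basement membrane genes and 9 genes that help build the sugar chain on dystroglycan to which laminin attaches. Named here are up to 4 genes per list with the highest level in any class of at least 40 cells. Itga1, the alpha subunit of a collagen- and laminin-binding integrin, had 1748 CPM in pericyte-like cells and 202.7 CPM in basophil or mast cell-like cells, its next highest class. Itgb1, its beta partner, was found everywhere, from 94.9 CPM in the unresolved lymphoid class to 1265 CPM in pericyte-like cells. Mcam, a receptor reported to bind the Lama4 chain, had 933.2 CPM in pericyte-like, 298.8 CPM in general capillary endothelial-like and 230.7 CPM in aerocyte-like cells, and 5.43 CPM in lymphatic endothelial-like cells, where Lama4 was highest. Bcam, a receptor for the Lama5 chain, had 1164 CPM in alveolar type 1-like and 1068 CPM in mesothelial-like cells, the classes that led in Lama5.

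Of the other basement membrane genes, Col4a1 and Col4a2, the common collagen IV chains, had 3261 and 2060 CPM in pericyte-like cells. They had 1952 and 1499 CPM in aerocyte-like cells, where cells with all 3 kinds of the counted laminin chains were rarest among structural classes. Col4a4, a chain of the collagen IV of mature alveoli and kidney, had 1267 CPM in alveolar type 1-like and 741.5 CPM in mesothelial-like cells. Sparc, a collagen-binding matrix protein, ran up to 10112 CPM in adventitial fibroblast-like cells. By list, 8 of 11 receptor genes were at least 2-fold higher and 1 lower in general capillary endothelial-like cells (median log2 ratio 1.43; all genes: 10% and 21.7%). In pericyte-like cells 7 were higher and 3 lower (10.8% and 23.8%), and in large vessel endothelial-like cells 9 and 0 (13.5% and 25.9%). Aerocyte-like cells had 7 higher and 3 lower (9.42% and 27.3%), and the unresolved endothelial class 7 and 0 (11.2% and 24.7%). Lymphatic endothelial-like cells had 2 higher and 5 lower (14% and 27.3%). In lipofibroblast or matrix fibroblast-like cells 0 receptor genes were higher and 5 lower (14.3% and 19.7%), and in alveolar myofibroblast-like cells 1 and 5 (16.2% and 17.9%). Of the other basement membrane genes, 8 of 14 were higher and 4 lower in general capillary endothelial-like cells. The same list had 10 higher and 3 lower in alveolar type 1-like cells (all genes: 13.5% and 32.7%), and 8 and 1 in smooth muscle-like cells (9.85% and 19%).

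Of the 9 dystroglycan glycosylation genes 8 were counted. Alveolar type 1-like cells had 5 at least 2-fold higher and 2 lower (median log2 ratio 1.26; all genes: 13.5% and 32.7%). Lipofibroblast or matrix fibroblast-like cells had 4 higher and 0 lower (1.02; 14.3% and 19.7%), and adventitial fibroblast-like cells 4 and 0 (1.04; 14.9% and 18.4%). Alveolar myofibroblast-like cells had 3 higher and 0 lower (0.96; 16.2% and 17.9%). Ciliated-like cells also had 4 higher and 0 lower (all genes: 22.4% and 30.8%), and mesothelial-like cells 3 and 0 (17.5% and 26.9%). Pomgnt1, a Golgi sugar transferase, had 43.1 CPM in aerocyte-like, 41.7 CPM in alveolar myofibroblast-like and 14.8 CPM in mesothelial-like cells. B4gat1, which primes the laminin-binding sugar chain, had 77.9 CPM in mesothelial-like and 62.9 CPM in alveolar myofibroblast-like cells. Rxylt1 was not matched by symbol.

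Sequence just before the start of transcription was read from the RefSeq promoter table (GRCm38.p6), which matched 5 of the 8 members. The mesenchymal classes highest in Lama2 were lowest in Lama5. Lamb1 was highest in pericyte-like cells, followed by the fibroblast-like classes. Lamb3 was highest in the alveolar epithelial classes, and natural killer cell-like cells came next. The stretches of these 4 genes, which have contrasting patterns, are shown. Each runs 5′ to 3′ on the gene's own strand over up to 250 bases before the start, without annotated exon bases. Capitals mark the GC box (GGGCGG), the CCAAT box (CCAAT) and the AP-1 site (TGANTCA), searched on both strands.
Lama2: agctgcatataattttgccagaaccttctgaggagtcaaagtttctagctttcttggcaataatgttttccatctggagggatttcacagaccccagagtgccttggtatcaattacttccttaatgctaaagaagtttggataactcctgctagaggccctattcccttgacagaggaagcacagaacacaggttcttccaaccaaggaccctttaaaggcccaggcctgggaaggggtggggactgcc
Lama5: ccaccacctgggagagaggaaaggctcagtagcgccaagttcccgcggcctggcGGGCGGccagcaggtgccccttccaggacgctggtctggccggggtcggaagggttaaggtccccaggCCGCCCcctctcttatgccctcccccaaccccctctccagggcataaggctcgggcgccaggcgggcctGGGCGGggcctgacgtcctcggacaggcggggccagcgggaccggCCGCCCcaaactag
Lamb1: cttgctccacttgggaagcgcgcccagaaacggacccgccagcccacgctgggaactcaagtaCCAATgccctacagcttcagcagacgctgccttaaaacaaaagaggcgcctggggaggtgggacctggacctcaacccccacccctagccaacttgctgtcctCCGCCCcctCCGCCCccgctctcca
Lamb3: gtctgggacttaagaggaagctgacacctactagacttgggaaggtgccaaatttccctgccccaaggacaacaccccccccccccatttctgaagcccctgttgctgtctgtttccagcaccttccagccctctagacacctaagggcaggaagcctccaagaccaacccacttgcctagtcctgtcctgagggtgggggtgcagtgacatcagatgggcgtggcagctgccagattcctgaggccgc

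The Lama2 stretch (chr10:27616943-27617192, reverse strand) had 47.2% G and C and held none of these motifs. The Lama5 stretch (chr2:180225860-180226109, reverse strand) had 72.4% G and C and held 4 GC boxes. The Lamb1 stretch (chr12:31265043-31265233, forward strand) held 2 GC boxes and 1 CCAAT box, and the Lamb3 stretch (chr1:193301744-193301992, forward strand) none of the 3 motifs. The Lamb1 stretch has 191 bases and the Lamb3 stretch 249, so both are shorter than the full window. Among 32817 windows of the full 250 bases in the table, 32.7% held a GC box, 33.8% a CCAAT box and 6.75% an AP-1 site, and the median G and C content was 52.4%. A match describes these letters and is not evidence of binding. In GENCODE M21 on mm10 the members other than Lama3 lie at chr10:26980036-27619758 (Lama2), chr10:38965515-39110188 (Lama4), chr2:180176373-180225859 (Lama5), chr12:31265234-31329644 (Lamb1), chr9:108479736-108490530 (Lamb2), chr1:193207699-193343878 (Lamb3) and chr1:153218922-153332786 (Lamc1). The Lama2 and Lamb3 stretches lie inside the longer GENCODE spans of their genes.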

How the data were processed

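The labels describe 1 single-cell and 1 bulk sample. Cell Ranger 5.0 and Seurat 3.2.2 are listed for the first, and featureCounts, HISAT2, Trim Galore and DESeq2 on mm10 for the second, per the submitters' processing notes. Their roles, further versions and the single-cell build are not stated. Values of the deposited single-cell table were treated as a score, that is UMI values corrected for depth: of the values above 0, 27.7% were 1 in the 1000 cells with fewest genes and 74.3% in the 1000 with most. Raw counts had been planned for, so no Poisson interval was given for single-cell levels and cells were not thinned to 1 depth. In the deposited bulk table each gene has an expected count (15.9% not whole), used as CPM, a TPM by the authors, used per length, and an FPKM, not used.

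Cells under 500 genes (0) or over 10% mitochondrial values (646) were left out, and Scrublet in scanpy 1.11.5 (expected share 5%) removed 461 of 10660 cells (4.32%). From 2000 variable genes, without the gene lists used here, 30 components and 15 neighbours, clusters came from Leiden at resolution 1. A cluster took the name with the highest mean centred log2 marker level (at least 1), and stayed unnamed where another lineage reached 0.5 of that score or fewer than 3 markers were detected. Names of 1 lineage within 10% were settled by markers among the 10 leading genes, and this detail was set after seeing the data. Members, lists and naming were chosen with earlier results of these data known. Some genes of the lists are not reported here and were left out of counts, sums and shares. Named partner genes are those reported among the 4 highest of each list in any class of at least 40 cells, and for each member the 3 genes with the highest Pearson r.

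Log2 ratios of 1, 2, -1 and -2 were planted in simulated data, each in 50 genes. They were planted for alveolar myofibroblast-like over all other cells (17758 genes). The median recovered ratios were 0.96, 1.96, -1.02 and -2.03, in that order. Recovery was not tested in the other classes. All planted genes had more summed values than Lama2, Lama3, Lama5, Lamb2 and Lamb3, of which Lamb2 had the most at 1912. Recovery at the levels of these members was therefore not tested. Alternatives were stricter cell filters, doublets kept, Leiden resolution 2, levels as means over cells, a pseudocount of 0.1, other minimums, detection at 2, and bulk TPM. Python 3.11.15 with scipy 1.17.1 was used.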

Additional observations from a re-analysis of the deposited data

How the results depend on the processing

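The leading class was the same for 8 of 8 members with stricter cell filters (1000 genes, 5% mitochondrial), doublets kept, Leiden resolution 2 and means over cells. Of levels at 20 CPM or more, 78 of 79 moved by 1.5-fold or less at resolution 2, 70 of 74 with stricter filters, and 79 of 79 with doublets kept and with means over cells. The exception at resolution 2 was Lama4 in smooth muscle-like cells (94.1 CPM), which there include a second cluster led by the alveolar myofibroblast marker Aspn. Stricter filters gave 13.8 CPM for Lama3 and for Lamb1 in ciliated-like, 16.4 for Lamb1 in aerocyte-like and 21.4 for Lamb3 in unresolved lymphoid cells, and lowered Lamb1 in pericyte-like cells from 481.6 to 355.6 CPM and Lamb3 in alveolar type 1-like cells from 322.7 to 245.7 CPM; the cause was not tested. At a threshold of 2 the share of cells with all 3 kinds of chain fell from 72.1% to 18.6% in mesothelial-like and from 60.0% to 17.1% in alveolar type 1-like cells.

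Bulk values depend on length scaling by construction. Shares of a kind by TPM and by CPM were 15.9% and 18.8% for Lama2, 53.7% and 39.3% for Lama4, 29.7% and 41.1% for Lama5, 56.0% and 56.7% for Lamb1, 43.8% and 43.2% for Lamb2, 0.175% and 0.122% for Lamb3, and 89.3% and 91.5% for Lamc1. With TPM the members at least 2-fold above the fibroblast-like classes went from 6 to 1, and the log2 ratios turned from 2.03 to -0.26 for Lama2 and from 1.59 to -0.025 for Lama4. Members below the whole library went from 1 to 2 with TPM and with a pseudocount of 0.1. No paired analysis was possible because each group has 1 sample. Classes of 24 to 43 cells (ciliated-like, lymphatic, alveolar type 1-like, mesothelial-like) have wide intervals, and no value has a replicate.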

Other observations

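Among the genes named above from the other lists, alveolar type 1-like and mesothelial-like cells also led 2, a collagen IV chain and a laminin receptor. They had Col4a4 at 1267 and 741.5 CPM and Bcam at 1164 and 1068 CPM. They differed in Lamb1, at 9.78 CPM in alveolar type 1-like and 103.8 CPM in mesothelial-like cells, and in Lama3, at 249.4 and 26.0 CPM.

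Cells carried several chains at once in some classes and few in others. The median number of the 8 members with a value per cell was 4 in alveolar type 1-like and mesothelial-like cells, 3 in alveolar myofibroblast-like, pericyte-like, adventitial fibroblast-like and lipofibroblast or matrix fibroblast-like cells, 2 in alveolar type 2-like cells and 1 in both capillary classes. No member was found in 47.4% of aerocyte-like cells (40.2 to 54.7) and in 29.7% of general capillary endothelial-like cells (26.2 to 33.5).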
